A study of Mus with 14 samples.

Results

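Lrmda, Zfp503 and Gm10248 lie side by side on mouse chromosome 14 and are described here across 14 single-cell libraries, each made from the bone marrow of 1 transplanted mouse. They are 3 of the 32285 genes listed in each library's files, and 3 of the 15618 genes with enough counts to be tested in the sums over all cells. The genes were chosen from their level in the mice labelled Dnmt3a;Tnfr1KO, so every difference between that group and another group is given as a description, without a test. All 3 passed the filter on low counts in the sums over all cells.

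Tnfr1 and Tnfr2 are the receptors for the inflammatory cytokine tumour necrosis factor alpha, and Dnmt3a is a DNA methyltransferase that is often mutated in clonal hematopoiesis, the outgrowth of a mutant blood stem cell. The study compared MxCre mice (n = 3), Dnmt3a mice (n = 4), Dnmt3a;Tnfr1KO mice (n = 3) and Dnmt3a;Tnfr2KO mice (n = 4), where KO stands for knockout. The last 2 groups are written Tnfr1KO-labelled and Tnfr2KO. In all 4 groups CD45.2+ donor cells were mixed with CD45.1+ competitor marrow and given to aged, lethally irradiated CD45.1+ hosts, which received a single dose of poly(I:C). This double-stranded RNA switches on the Mx promoter and with it the Cre recombinase. Marrow of these hosts went into a second set of aged, irradiated hosts, and Lin-Kit+CD45.2+ progenitors were sorted from them 20 weeks later. The labels name neither the Dnmt3a allele, nor the deleted part of either receptor gene, nor which first hosts supplied which mice. Mice of a group may therefore share a donor, and the p-values measure the spread between these mice only. No batch is named in the labels.

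Lrmda encodes a leucine-rich repeat protein named for melanocyte differentiation, and loss of its human counterpart causes a form of oculocutaneous albinism. It acts in pigment cells, where melanosomes, which are lysosome-related organelles, mature with the help of the small GTPases Rab32 and Rab38. Zfp503 encodes a zinc finger repressor of the NET family that works with Groucho corepressors in the developing brain and limb. Gm10248 is annotated as a long non-coding RNA. In the RefSeq annotation of GRCm38, the build named in the submitters' processing notes, Zfp503 covers chr14:21983959-21989601, Lrmda covers chr14:22019504-23056093 and Gm10248 covers chr14:23038194-23094571. The gap between Zfp503 and Lrmda is 29.9 kb. Gm10248 overlaps the high-coordinate end of Lrmda by 17900 bases, and the annotation used here gives no strand, so UMIs from the shared stretch cannot be assigned with certainty to either gene.

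The matrices gave 62416022 to 162869740 UMIs (unique molecular identifiers, each standing for a captured RNA molecule) per library, and 1924 to 7265 cells per library were kept. Dnmt3a replicate 1 kept 26.5% of its barcodes, the lowest share. Dnmt3a replicate 4 stood apart in content, since 36.8% of its cells fell into the B-lymphoid gate, against at most 3.48% in each other library, and 15.8% into the mature neutrophil gate, against at most 9.61%. Tnfr1KO-labelled replicate 2 had the highest share of cells in the gates of mature B cells and of T, NK and innate lymphoid cells. Together they held 10.2% of its cells, against a median of 0.456% over all libraries. Kit, the surface receptor used for sorting, was present in every library at 69.1 to 182 CPM (UMIs per 1000000 UMIs of the kept cells). Any 2 libraries shared at most 16 cell barcodes.

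The receptor transcripts bear unequally on the labels. Tnfrsf1b, which encodes Tnfr2, stood at 3.96, 5.50, 4.56 and 5.09 CPM in the Tnfr2KO libraries and at 10.2 to 17.3 CPM in the 10 others. Tnfrsf1a, which encodes Tnfr1, stood at 37.4, 33.1 and 37.8 CPM in the Tnfr1KO-labelled libraries, below the 38.02 to 64.05 CPM of the others but far from absent. The log2 fold change of Tnfrsf1a against Dnmt3a was -0.19 (SE 0.187, edgeR adjusted p = 0.588). With 3' counts and an unknown deleted part this transcript does not check the label, and every direction given for the Tnfr1KO-labelled mice rests on the label alone. The Dnmt3a transcript was detected in all libraries, at 29.4 to 38.7 CPM in the Dnmt3a group, 21.6, 23.7 and 30.8 CPM in MxCre, 18.6 to 22.02 CPM in the Tnfr1KO-labelled group and 21.4 to 23.1 CPM in Tnfr2KO. Both Tnfr groups thus lay below every Dnmt3a library. The log2 fold change of the Tnfr1KO-labelled mice against Dnmt3a was -0.48 (SE 0.0969, edgeR adjusted p = 0.0489), and that of Tnfr2KO against Dnmt3a was -0.36 (SE 0.0888, edgeR adjusted p = 0.0649).

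Lrmda was present at a fairly even level in the control and Dnmt3a mice, lower in the Tnfr2KO mice, and about an order of magnitude lower in the Tnfr1KO-labelled mice. In MxCre replicates 1 to 3 Lrmda stood at 18.4, 19.7 and 17.3 CPM. In Dnmt3a replicates 1 to 4 it stood at 16.2, 18.4, 18.1 and 13.2 CPM. In the Tnfr2KO libraries it stood at 11.7, 11.1, 11.7 and 11.3 CPM, all below the lowest Dnmt3a library. In the Tnfr1KO-labelled libraries it stood at 1.96, 2.02 and 1.96 CPM, on 221, 185 and 153 UMIs. The Tnfr1KO-labelled and Tnfr2KO libraries overlapped neither each other nor the MxCre and Dnmt3a libraries, whereas MxCre and Dnmt3a overlapped.

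The group means were 18.5 ± 1.20 CPM for MxCre (SD, n = 3), 16.5 ± 2.40 CPM for Dnmt3a (SD, n = 4), 1.98 ± 0.0345 CPM for the Tnfr1KO-labelled group (SD, n = 3) and 11.4 ± 0.285 CPM for Tnfr2KO (SD, n = 4). The Tnfr1KO-labelled mean was 12.02% of the Dnmt3a mean and 10.7% of the MxCre mean. The fitted log2 fold changes were -2.86 (SE 0.154) against Dnmt3a and -3.11 (SE 0.160) against MxCre. Fitted values include a scaling factor per library (TMM, edgeR) and so need not equal the ratio of mean CPM. The Tnfr1KO-labelled mice kept a low but measurable level, on 559 UMIs in all. These values chose the gene and carry no test. In the comparison of Tnfr1KO-labelled with Dnmt3a mice 0.557% of all tested genes were called at an adjusted p below 0.05 (edgeR).

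The low Dnmt3a value, that of replicate 4, belongs to the library rich in B-lymphoid cells. Within the granulocyte gate the same library held 20.4 CPM of Lrmda, inside the 18.8 to 22.5 CPM range of its group. In bulk sums of this kind fewer cells of a type and less RNA per cell cannot be told apart, so the lineage values further on are the ones that compare like cells.

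The Tnfr2KO and MxCre groups are not those of the contrast on which the genes were chosen, and their difference was tested. The fit held all 4 groups, so its estimate of the spread and its scaling came in part from the Dnmt3a and Tnfr1KO-labelled libraries. Lrmda fell short of the threshold over all cells, with Tnfr2KO at 61.9% of the MxCre mean, a log2 fold change of -0.57 (SE 0.136) and an edgeR adjusted p of 0.0932. All 4 Tnfr2KO libraries lay below all 3 MxCre libraries. How many of all genes separate in this way was not counted. A lack of overlap between libraries is therefore a description only, here and wherever else it is named. In this comparison 0.423% of all tested genes were called. The call depended on the settings. The adjusted p was 0.00879 with DESeq2, 0.0437 with only the 2 groups in the edgeR fit and 0.0331 without Dnmt3a replicate 4, and it ran from 0.00879 to 0.240 over all 21 alternatives. Against Dnmt3a, which served as comparator when the genes were chosen, the Tnfr2KO log2 fold change was -0.32 (SE 0.127), and Dnmt3a against MxCre gave -0.25 (SE 0.136), both as descriptions. These comparisons share the MxCre, Dnmt3a or Tnfr2KO libraries with each other.

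Zfp503 showed the opposite order at a much lower level. MxCre replicates 1 to 3 held 0.111, 0.207 and 0.182 CPM. Dnmt3a replicates 1 to 4 held 0.155, 0.277, 0.102 and 0.165 CPM. Tnfr1KO-labelled replicates 1 to 3 held 0.453, 1.83 and 0.938 CPM, on 51, 167 and 73 UMIs. Each of these 3 libraries lay above every MxCre and Dnmt3a library, and they spread 4-fold among themselves, far more than for Lrmda. Tnfr2KO replicates 1 to 4 held 0.735, 0.760, 0.348 and 0.253 CPM, overlapping both the Tnfr1KO-labelled and the Dnmt3a range.

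The fitted log2 fold change of Zfp503 in the Tnfr1KO-labelled mice against Dnmt3a was 2.79 (SE 0.507), from a mean of 1.07 ± 0.697 CPM (SD, n = 3) against 0.175 ± 0.0733 CPM (SD, n = 4). In the tested comparison the Tnfr2KO mice, with 0.524 ± 0.261 CPM (SD, n = 4), were 3.15-fold above the MxCre mean of 0.166 ± 0.05004 CPM (SD, n = 3), with no overlap between libraries. The log2 fold change of 1.80 (SE 0.534) did not pass the threshold (edgeR adjusted p = 0.174).

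Gm10248 was scarce everywhere and nearly absent from the Tnfr1KO-labelled mice. MxCre replicates 1 to 3 gave 27, 14 and 19 UMIs. Dnmt3a replicates 1 to 4 gave 34, 28, 25 and 12 UMIs. Tnfr2KO replicates 1 to 4 gave 18, 15, 12 and 17 UMIs. The Tnfr1KO-labelled replicates gave 2, 0 and 1 UMIs, fewer than any other library although their depth was similar. Pooled over libraries and scaled to depth, the Tnfr1KO-labelled level was 0.0422 of the Dnmt3a level, on 3 against 99 UMIs. These values chose the gene and carry no test.

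In CPM, Gm10248 averaged 0.225 ± 0.0334 in MxCre (SD, n = 3), 0.277 ± 0.152 in Dnmt3a (SD, n = 4) and 0.118 ± 0.0160 in Tnfr2KO (SD, n = 4). The order of the groups was thus the same as for Lrmda except that Dnmt3a, with its wide spread, ranked above MxCre. Tnfr2KO against MxCre gave a log2 fold change of -0.79 (SE 0.473), which did not pass the threshold (edgeR adjusted p = 0.435). As a description, the 4 Tnfr2KO libraries lay below the 3 MxCre libraries.

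**Figure D1:**
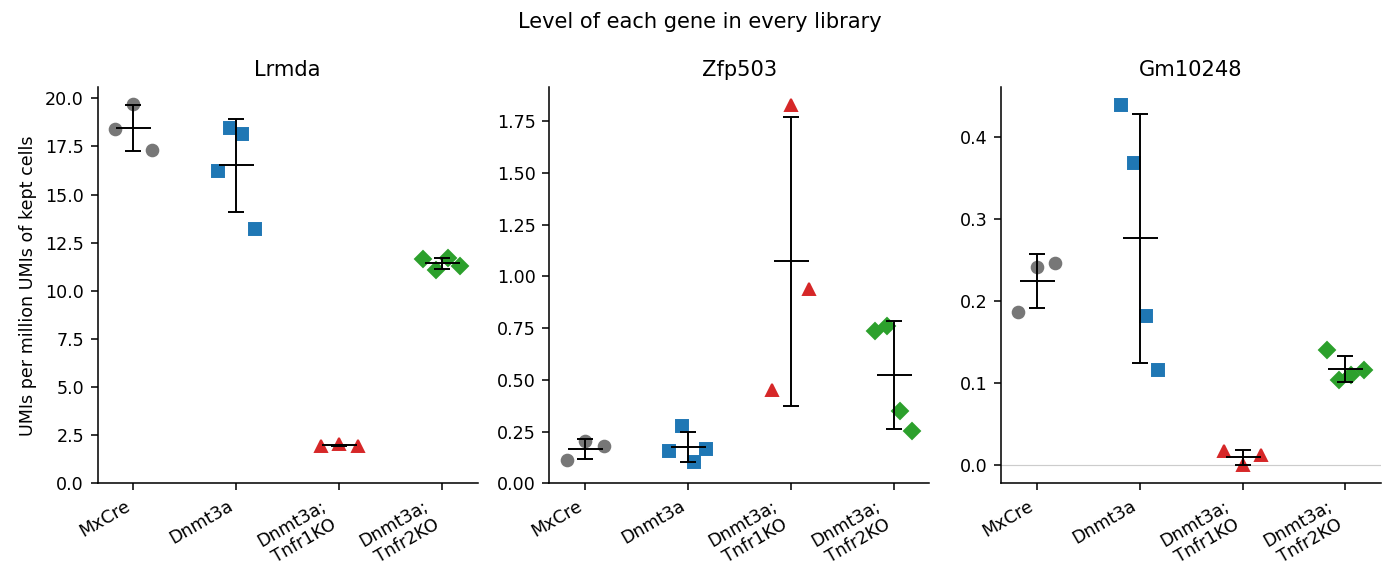
Level of Lrmda, Zfp503 and Gm10248 (vertical axes, UMIs per 1000000 UMIs of kept cells, a separate linear scale for each gene) in the 4 groups (horizontal axis). Each point is 1 library, the long bar is the group mean and the whiskers are 1 SD. The 3 Tnfr1KO-labelled libraries sit near 2 CPM for Lrmda, spread from 0.453 to 1.83 CPM for Zfp503, and lie at or next to 0 for Gm10248.

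The thinned share of cells with a Lrmda UMI ranked the groups as the sums did. After thinning every cell to 5000 UMIs, 7.99 ± 0.525% of MxCre cells held at least 1 Lrmda UMI (SD, n = 3). The shares were 7.25 ± 2.13% in Dnmt3a (SD, n = 4), 1.03 ± 0.163% in the Tnfr1KO-labelled group (SD, n = 3) and 5.18 ± 0.320% in Tnfr2KO (SD, n = 4). Thinning left out 642, 2276, 2227 and 1660 shallower cells in these groups, in the order just given. Without thinning the shares were 28.0%, 30.7%, 4.29% and 19.7%. Thinned cells with 2 or more Lrmda UMIs made up 0.465% of MxCre cells and 0.0140% of Tnfr1KO-labelled cells on average. With so few UMIs per cell the share moves with the mean level, so fewer cells with the transcript and less transcript per cell cannot be told apart from it.

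B-lymphoid gated cells held little Lrmda and serve as a low reference. In Dnmt3a replicate 4, where 1994 such cells were counted, 0.351% of them held a Lrmda UMI before thinning. Thinning left out 1045 of them as too shallow, and 0.211% of the rest held a Lrmda UMI. Their median depth was 4796 UMIs, against library medians of 10548 to 39086 UMIs over all kept cells of the Dnmt3a group. The share in the Tnfr1KO-labelled libraries, all lineages together, was thus above that of the B-lymphoid gated cells of this 1 library. A mixture of lineages is set here beside 1 lineage of another group. Before thinning, 1.49% of 67 such cells in Dnmt3a replicate 1 and 0.833% of 120 in replicate 3 held a Lrmda UMI. The 42 and 22 such cells of Tnfr1KO-labelled replicates 2 and 3 held none.

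Cells were sorted into lineages by UMIs of marker genes that include none of the 3 genes. A cell entered a lineage when its mean standardised marker score was at least 0.5, at least 3 of the markers were detected, and the score lay at least 0.25 above the next lineage. Of the kept cells 30.2% met this rule for no lineage. The 7 lineages with at least 20 cells in 13 or 14 libraries were used: HSC/MPP (hematopoietic stem cells and multipotent progenitors), lymphoid-primed, granulocyte, monocyte, basophil/mast, megakaryocyte and erythroid progenitors. The gates are ranges of a score, and 3.41% (erythroid) to 15.6% (lymphoid-primed) of gated cells lay near the border of theirs.

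Lrmda was expressed in all 7 gates of the MxCre mice, highest in granulocyte progenitors at 23.8 ± 1.14 CPM (SD, n = 3) and lowest in erythroid progenitors at 10.2 ± 1.34 CPM (SD, n = 3). Tnfr2KO mice ran from 12.97 ± 0.542 CPM in granulocyte to 5.45 ± 1.18 CPM in erythroid progenitors (SD, n = 4). The Tnfr1KO-labelled mice held a narrower range, with lineage means between 1.75 CPM in monocyte and 2.32 CPM in basophil/mast progenitors. The ratio of the highest to the lowest lineage mean was 2.34 in MxCre, 3.39 in Dnmt3a, 2.38 in Tnfr2KO and 1.33 in the Tnfr1KO-labelled group. Whether these ratios differ was not tested.

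Over all mice with enough cells in the gate, the order of mean log2(CPM + 1) was granulocyte (3.68), basophil/mast (3.61), HSC/MPP (3.46), monocyte (3.45), lymphoid-primed (3.36), megakaryocyte (3.14) and erythroid progenitors (2.54). The megakaryocyte mean leaves out Dnmt3a replicate 4, which is in the other means, so its distance from them is not one within the same mice. Neighbours in this order were compared within mice by a two-sided permutation test of sign flips, adjusted over the 12 pairs run for Lrmda and Zfp503. The order, and so the choice and direction of the pairs, came from these same values, which the p-values do not allow for. Megakaryocyte exceeded erythroid progenitors by 0.43 ± 0.422 on this log2 scale (SD, n = 13), in 11 of 13 mice (permutation p = 0.00391, adjusted 0.0469). Leaving out any of 10 libraries lifted that adjusted p above the threshold, to at most 0.0938. These were MxCre replicates 1 to 3, Dnmt3a replicates 1 to 3, Tnfr1KO-labelled replicate 2 and Tnfr2KO replicates 1, 2 and 4. The other 5 neighbouring pairs differed by 0.01 to 0.18 and did not pass the threshold (adjusted p 0.140 to 0.970).

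The Tnfr1KO-labelled mice were low in each gate. In granulocyte progenitors Lrmda stood at 1.87, 1.94 and 1.99 CPM, against 18.8, 22.5, 21.7 and 20.4 CPM in the Dnmt3a libraries. In monocyte progenitors it stood at 1.63, 1.85 and 1.76 CPM, against 16.5, 17.6, 17.8 and 16.6 CPM. In HSC/MPP it stood at 0.925, 2.34 and 1.99 CPM, against 18.4, 19.1, 16.0 and 21.9 CPM. The groups did not overlap in these 3 gates, although the HSC/MPP values of the Tnfr1KO-labelled mice rest on 1, 9 and 3 UMIs.

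In basophil/mast progenitors the Tnfr1KO-labelled libraries held 2.12, 2.56 and 2.27 CPM, and the Dnmt3a libraries 17.8 to 19.1 CPM. In lymphoid-primed cells they held 1.30, 2.52 and 2.29 CPM, against 13.8 to 16.9 CPM. In megakaryocyte progenitors they held 2.76, 2.52 and 1.20 CPM, against 10.6, 10.9 and 15.4 CPM in the 3 Dnmt3a libraries with enough cells. Replicate 4 of Dnmt3a had 14 megakaryocyte gated cells and was left out there. Across these 6 gates the Tnfr1KO-labelled mean was 9.27% to 17.6% of the Dnmt3a mean, and the log2 fold changes ran from -3.21 in granulocyte to -2.20 in megakaryocyte progenitors.

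Erythroid progenitors were the exception to the separation of groups, through 1 library. The Tnfr1KO-labelled libraries held 2.79, 1.43 and 1.90 CPM of Lrmda and the Dnmt3a libraries 8.41, 10.3, 5.63 and 0.254 CPM. The last value, 1 UMI, belongs to Dnmt3a replicate 4. There hemoglobin transcripts made up 45.9% of the UMIs of erythroid gated cells, against 0.165% to 2.71% in the other libraries. Whether this share bears on the low Lrmda value was not tested. The log2 fold change was -1.70 (SE 0.515) with Dnmt3a replicate 4 and -2.05 (SE 0.325) without it. At the other extreme it was -1.34 without Dnmt3a replicate 2. Without replicate 4 the Dnmt3a mean was 8.12 ± 2.35 CPM (SD, n = 3), and the groups did not overlap. Whether the fold change in erythroid progenitors differs from that in the other gates was not tested.

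**Figure D2:**
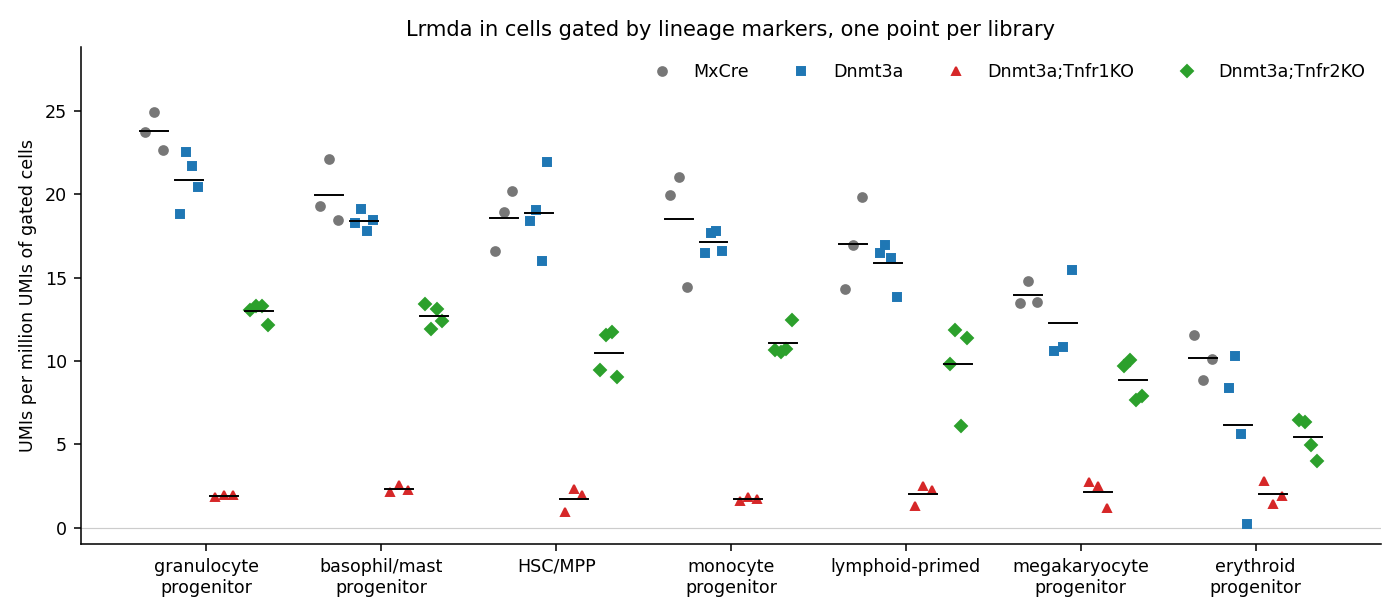
Lrmda level (vertical axis, UMIs per 1000000 UMIs of the gated cells) in 7 lineage gates (horizontal axis, ordered by mean level over all mice). Each point is 1 library with at least 20 gated cells, and the bar is the group mean. The Tnfr1KO-labelled points lie between 0.925 and 2.79 CPM in every gate, and the low Dnmt3a point among erythroid progenitors is replicate 4 at 0.254 CPM.

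The lower Lrmda level of the Tnfr2KO mice was seen in each gate and passed the threshold in 3 of the 7. The Tnfr2KO mean was 53.6% to 63.8% of the MxCre mean over the 7 gates, and no Tnfr2KO library reached the lowest MxCre library in any of them. The share of all genes that separate in this way was not counted in any gate. In granulocyte progenitors Lrmda fell by 0.86 on the log2 scale (SE 0.114, edgeR adjusted p = 6.70e-04), where 0.347% of all tested genes were called. The 4 Tnfr2KO libraries held 13.1, 13.3, 13.3 and 12.2 CPM and the 3 MxCre libraries 23.7, 24.9 and 22.7 CPM. This call held under all 19 alternatives, with adjusted p from 6.04e-09 to 0.00882, and 0.00175 with only the 2 groups in the fit.

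In HSC/MPP Lrmda fell by 0.80 (SE 0.161, edgeR adjusted p = 0.0130), where 1.47% of tested genes were called. The Tnfr2KO libraries held 9.47, 11.6, 11.7 and 9.06 CPM and the MxCre libraries 16.6, 18.9 and 20.2 CPM. The adjusted p rose to 0.0605 without MxCre replicate 2 and to 0.133 without MxCre replicate 3, and was 0.0206 with only the 2 groups. In monocyte progenitors it fell by 0.74 (SE 0.138, edgeR adjusted p = 0.0291), where 0.224% of tested genes were called. The Tnfr2KO libraries held 10.6, 10.6, 10.7 and 12.4 CPM and the MxCre libraries 20.0, 21.0 and 14.4 CPM. Here the call was lost with only the 2 groups in the fit (adjusted p = 0.0685) and, with an adjusted p of up to 0.326, when any of 7 libraries was left out, namely MxCre replicate 1 or 2, Tnfr1KO-labelled replicate 2 or 3, or Tnfr2KO replicate 1, 2 or 3.

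The other 4 gates did not pass the threshold. The log2 fold changes were -0.64 in basophil/mast (SE 0.153, adjusted p = 0.132), -0.57 in megakaryocyte (SE 0.171, adjusted p = 0.308), -0.72 in lymphoid-primed (SE 0.257, adjusted p = 1.00) and -0.89 in erythroid progenitors (SE 0.421, adjusted p = 1), all by edgeR. The shares of all tested genes called in these gates were 0.196%, 0.471%, 0.0383% and 0.0822%, in the same order. Differences between gates were not tested.

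Zfp503 was distributed over the lineages in another way than Lrmda. In the MxCre mice it had no UMI in 591 basophil/mast, 1810 erythroid, 153 lymphoid-primed and 1916 granulocyte gated cells, and averaged 0.569 ± 0.638 CPM in HSC/MPP (SD, n = 3). The floor of 3 UMIs over the group puts its erythroid level there at no more than 0.0719 CPM, counting error only. In Dnmt3a mice a single UMI was found in 943 erythroid gated cells and a single UMI in 761 basophil/mast gated cells.

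In the Tnfr1KO-labelled mice Zfp503 was highest in erythroid progenitors, at 2.79, 4.41 and 3.98 CPM on 6, 68 and 21 UMIs. Basophil/mast progenitors followed with 2.55, 2.24 and 2.65 CPM, and HSC/MPP with 0.925, 3.38 and 2.65 CPM. The level was lower in monocyte progenitors, at 0.496, 1.37 and 1.13 CPM, and lowest in granulocyte progenitors, at 0.211, 0.399 and 0.130 CPM. The wide spread of the 3 mice over all cells stands beside unequal lineage content. Replicate 2, the highest, had 515 erythroid and 527 granulocyte gated cells, whereas replicate 1, the lowest, had 193 and 1879. The part of lineage content in that spread was not tested, and in erythroid progenitors the 3 mice differed 1.58-fold from lowest to highest.

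In the Tnfr2KO mice Zfp503 was highest in basophil/mast progenitors, at 2.20, 4.55, 0.547 and 1.25 CPM on 8, 24, 1 and 11 UMIs. In erythroid progenitors it stood at 1.25, 0.621, 0.952 and 0.687 CPM on 10, 14, 4 and 5 UMIs, below all 3 Tnfr1KO-labelled libraries. The order of lineages in mean log2(CPM + 1) over all mice with enough cells ran from basophil/mast (0.82) over HSC/MPP (0.75), erythroid (0.74), monocyte (0.56), lymphoid-primed (0.32) and megakaryocyte (0.30) to granulocyte progenitors (0.20). The megakaryocyte mean again leaves out Dnmt3a replicate 4. None of the 6 neighbouring pairs passed the threshold with all mice (permutation test, adjusted p 0.140 to 0.970). Without Tnfr2KO replicate 3, monocyte over lymphoid-primed progenitors passed it (permutation test, adjusted p = 0.0176).

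Between the Tnfr2KO and MxCre mice Zfp503 is described by lineage without a test. In erythroid progenitors it passed the filter on low counts only through the 3 Tnfr1KO-labelled libraries, in which it had been chosen as high, and in monocyte progenitors it would not have passed on the MxCre and Tnfr2KO libraries alone, so no test is given there. In granulocyte progenitors the libraries over the cutoff of the filter were 1 Tnfr1KO-labelled and 2 Tnfr2KO libraries, and none of MxCre or Dnmt3a. The gene also passed there on the MxCre and Tnfr2KO libraries alone. It thus passed the filter through groups where it was high, and no test is given for this gate either. In this gate 47 UMIs in 6340 Tnfr2KO cells faced none in 1916 MxCre cells, 5.72-fold the floor of 3 UMIs over the MxCre group. The other gates are likewise described by their counts. In erythroid progenitors 33 UMIs in 2070 Tnfr2KO cells faced none in 1810 MxCre cells, 10.9-fold the MxCre floor, and all 4 Tnfr2KO libraries held at least 4 UMIs. In basophil/mast progenitors 44 UMIs faced none, 7.99-fold the floor. These ratios set the pooled Tnfr2KO level against the floor, without the counting error of the Tnfr2KO UMIs or the spread between mice. They rest on the depth of MxCre replicate 1. Without that library they were 2.84-fold in granulocyte, 3.68-fold in erythroid and 2.71-fold in basophil/mast progenitors, and the last was 4.98-fold without Tnfr2KO replicate 2. In monocyte progenitors the levels were 0.527 ± 0.288 CPM in Tnfr2KO (SD, n = 4) and 0.239 ± 0.221 CPM in MxCre (SD, n = 3), and the libraries overlapped. HSC/MPP, the gate with the highest MxCre level, gave 10 UMIs in each group, at 0.589 CPM in Tnfr2KO and 0.569 CPM in MxCre. Lymphoid-primed cells gave 7 UMIs against none, a level below the MxCre floor. Megakaryocyte progenitors gave 12 UMIs in Tnfr2KO against 1 in MxCre. The libraries of the groups overlapped in each of these gates as well.

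**Figure D3:**
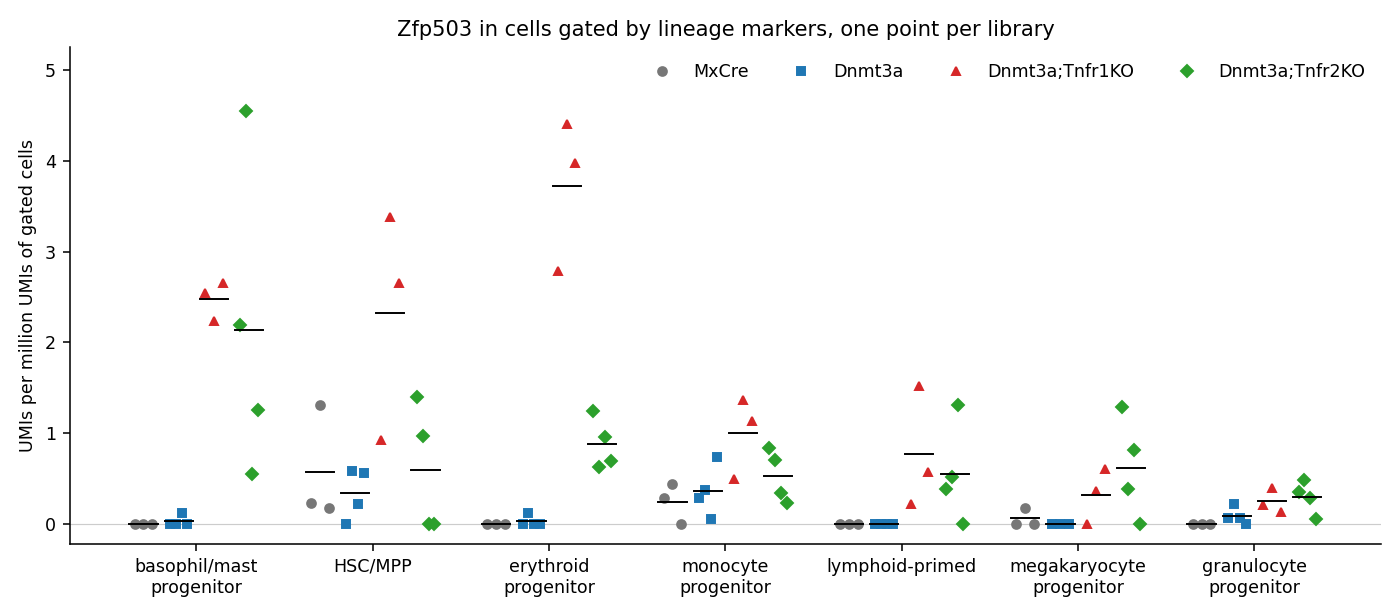
Zfp503 level (vertical axis, UMIs per 1000000 UMIs of the gated cells) in 7 lineage gates (horizontal axis, ordered by mean level over all mice). Each point is 1 library with at least 20 gated cells, and the bar is the group mean. Erythroid gated cells of the Tnfr1KO-labelled mice reach 2.79 to 4.41 CPM, and the MxCre and Dnmt3a points lie at or near 0 there and among basophil/mast progenitors.

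Gm10248 was scarce in each gate. In the Tnfr1KO-labelled mice it had 1 UMI among 3111 granulocyte gated cells and none in the other 6 gates. In granulocyte progenitors the Tnfr1KO-labelled libraries held 0.0234, 0 and 0 CPM, and the Dnmt3a libraries 0.439, 0.690, 0.243 and 0.131 CPM on 35 UMIs. The MxCre libraries held 0.243, 0.166 and 0.350 CPM on 16 UMIs, and the Tnfr1KO-labelled libraries overlapped neither group. In monocyte progenitors the Tnfr1KO-labelled group had no UMI, which allows up to 0.0496 CPM over the group. Pooled, the Dnmt3a level there was 0.247 CPM (95% interval 0.141 to 0.401, exact, counting error only) on 16 UMIs, and the MxCre level 0.187 CPM (0.0607 to 0.437) on 5 UMIs. These differences chose the gene and carry no test. In HSC/MPP the Dnmt3a mice gave 11 UMIs and the MxCre mice 12. At the HSC/MPP depth of the Tnfr1KO-labelled mice, a count of 0 allows up to 0.466 CPM over the group. This lies below the Dnmt3a mean of 0.697 CPM but within the MxCre range of 0.441 to 0.653 CPM. The limit thus does not set the group below every MxCre library. By library, the Tnfr1KO-labelled values, all 0, did not overlap those of MxCre but did overlap those of Dnmt3a.

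Of the other tested genes that RefSeq places within 3 Mb of Lrmda, leaving out Zfp503 and Gm10248, none passed the test in the Tnfr1KO-labelled mice against Dnmt3a. The table places 69 other listed genes within 3 Mb of the ends of Lrmda, and 47 of them had enough counts to be tested. None was called by edgeR or by DESeq2. Gm47601, which has no position in that table and so is not among them, was lower in these mice and is described further on. At an unadjusted p below 0.05 edgeR listed 5 of the 47 (Saysd1, Ppp3cb, Kat6b, Rps24 and Tmem254a), against 19.9% of all tested genes. Their median log2 fold change was -0.03, beside -0.05 over all genes tested. The edgeR count was 0 as well within 3 Mb without any single library, within 1 Mb (1 of 10 at an unadjusted p below 0.05, none by DESeq2) and within 5 Mb (10 of 64). In the 5 Mb window DESeq2 called Ccdc66, Slmap and Tasor, beside 6.4% of all genes to which it gave an adjusted p.

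On the low-coordinate side the next genes before Zfp503 are Vdac2, Comtd1 and A430057M04Rik, 163 to 174 kb from Lrmda. Vdac2, a mitochondrial outer membrane channel, averaged 347 CPM in the Tnfr1KO-labelled and 342 CPM in the Dnmt3a mice, with a log2 fold change of 0.21 (SE 0.152, edgeR adjusted p = 0.453). Comtd1, a putative methyltransferase gene, gave 0.28 (SE 0.151, edgeR adjusted p = 0.319) and A430057M04Rik gave 0.42 (SE 0.236, edgeR adjusted p = 0.335). On the high-coordinate side lies Kcnma1, a calcium-activated potassium channel gene 236 kb from Lrmda, with 44 UMIs in all libraries together, too few for a test. Inside Lrmda the annotation holds the non-coding gene 4930405A10Rik. It stood at 0.0444, 0.0328 and 0.0899 CPM in the Tnfr1KO-labelled libraries and at 0.724, 0.105, 0.0512 and 0.0194 CPM in the Dnmt3a libraries, so the groups overlapped, with the high value in Dnmt3a replicate 1 (edgeR adjusted p = 0.327).

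The same neighbours were compared between Tnfr2KO and MxCre mice. Again none of the 47 genes within 3 Mb was called by edgeR or DESeq2, and 4 had an unadjusted edgeR p below 0.05, against 15.1% of all tested genes. Their median log2 fold change was -0.05, beside 0.00 over all genes. Within 5 Mb 1 of 64 was called, beside 0.423% of all tested genes. This was Rarb, a retinoic acid receptor gene, which was lower. In Dnmt3a against MxCre edgeR called 2 of these 64, Slmap and Ccdc66, both higher, beside 2.46% of all tested genes. DESeq2 called 6 of the 64 there, Ccdc66, Kcnk5, Rarb, Saysd1, Slmap and Ube2e2. It called 9.91% of all genes to which it gave an adjusted p. Of the 6, Kcnk5 and Saysd1 lie within 3 Mb.

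**Figure D4:**
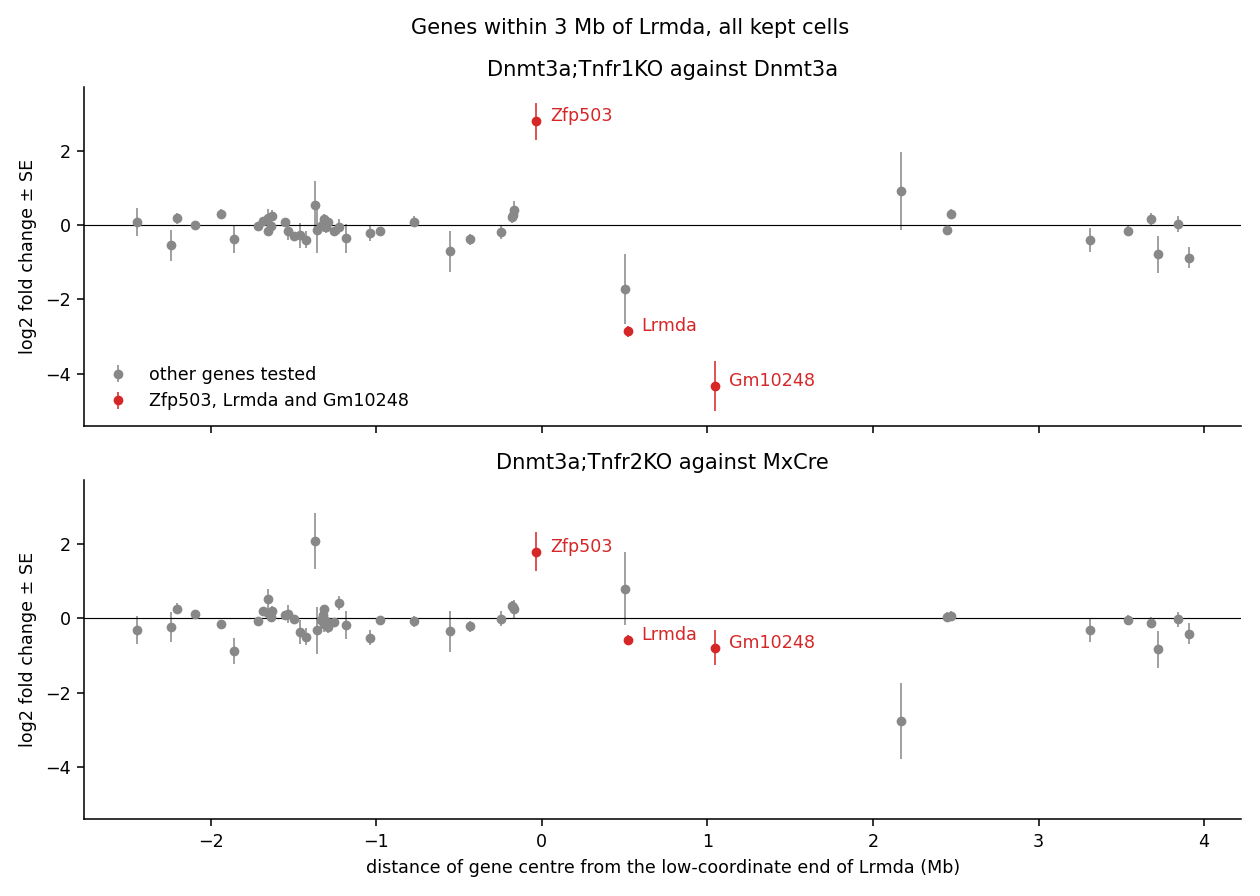
Log2 fold change with its SE (vertical axes) of the tested genes within 3 Mb of Lrmda against the distance of the gene's centre from the low-coordinate end of Lrmda in Mb (horizontal axis), for Tnfr1KO-labelled against Dnmt3a mice (upper panel) and Tnfr2KO against MxCre mice (lower panel). In the upper panel Zfp503 lies at 2.79, Lrmda at -2.86 and Gm10248 at -4.34, and the other 47 genes lie between -1.72 and 0.92.

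A further non-coding gene, Gm47601, was singled out after its values were seen, because the files list it between Lrmda and Gm10248. The reference table gives no position for it. It stood at 1.73, 2.07 and 2.35 CPM in MxCre, 3.95, 2.57, 2.65 and 1.88 CPM in Dnmt3a, 1.03, 1.34, 1.14 and 1.11 CPM in Tnfr2KO, and 0.293, 0.350 and 0.616 CPM in the Tnfr1KO-labelled libraries. Neither Tnfr group overlapped any other group, and the order of the groups was that of Gm10248. The log2 fold change of the Tnfr1KO-labelled mice against Dnmt3a was -2.53 (SE 0.280). It is given without a test because the gene was picked for these values. Tnfr2KO against MxCre gave -0.71 (SE 0.251), which did not pass the threshold (edgeR adjusted p = 0.233).

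The listed genes that work in the same setting as Lrmda in pigment cells did not pass the edgeR test in the Tnfr1KO-labelled mice against Dnmt3a or in Tnfr2KO against MxCre. Of 24 genes for transport to lysosome-related organelles all were tested in the Tnfr1KO-labelled mice against Dnmt3a, and edgeR called none. Their median log2 fold change was 0.13, beside -0.05 over all genes. An unadjusted edgeR p below 0.05 was found for 5 of the 24, beside 19.9% of all tested genes, and DESeq2 called 1, Hps4, beside 6.4% of the genes it could call. Rab32 averaged 30.7 ± 3.56 CPM in the Tnfr1KO-labelled mice (SD, n = 3) and 31.7 ± 2.58 CPM in Dnmt3a (SD, n = 4). Rab38 averaged 51.7 ± 9.10 and 56.9 ± 15.6 CPM. Neither gene passed the threshold (edgeR adjusted p = 0.530 and 0.903).

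Of 16 melanocyte and melanosome genes 5 had enough counts for a test, none was called by edgeR or DESeq2, and none had an unadjusted p below 0.05. Their median was 0.01. Mitf, the master transcription factor of melanocytes, which mast cells also use, averaged 2.77 ± 0.591 CPM in the Tnfr1KO-labelled mice (SD, n = 3) and 3.85 ± 0.925 CPM in Dnmt3a (SD, n = 4), with an edgeR adjusted p of 0.507. For Tnfr2KO against MxCre edgeR called none of either list. DESeq2 called Ap3s1 of the transport list and Slc24a5 of the melanocyte list, beside 2.55% of the genes it could call. An unadjusted edgeR p below 0.05 was found for 2 of 24 and 2 of 5 genes, beside 15.1% of all tested genes. In Dnmt3a against MxCre, where 2.46% of all tested genes were called, edgeR called Myo5a of the transport list and Slc24a5 of the melanocyte list. DESeq2 called Ap3b1, Lyst and Myo5a, and Mitf and Slc24a5, there, beside 9.91% of the genes it could call.

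The relatives and partners of Zfp503 did not pass the test in the Tnfr1KO-labelled mice against Dnmt3a or in Tnfr2KO against MxCre. All 9 other genes of this list were tested, and none was called by edgeR or DESeq2 in either of these comparisons. They are Zfp703 of the NET family, the Groucho genes Tle1 to Tle6 and the histone deacetylase genes Hdac1 and Hdac2. At an unadjusted edgeR p below 0.05 the counts were 0 of 9 in the first, beside 19.9% of all tested genes, and 2 of 9 (Hdac2 and Tle2) in the second, beside 15.1%. Zfp703, the close relative of Zfp503, averaged 6.11 ± 0.951 CPM in the Tnfr1KO-labelled mice (SD, n = 3) and 6.56 ± 0.345 CPM in Dnmt3a (SD, n = 4), with a log2 fold change of 0.10 (SE 0.146, edgeR adjusted p = 0.728). The median of the 9 genes was -0.07, beside -0.05 over all genes.

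The 5 genes whose log2(CPM + 1) followed Lrmda most closely over the 14 libraries, among 9105 others with a mean of at least 5 CPM, were 6330562C20Rik (Pearson r = 0.862), Stap1 (0.846), Grk3 (0.810), H1f0 (0.806) and Isoc2b (0.793). The 14 points share groups and libraries, so these coefficients are descriptions. In 6330562C20Rik the Tnfr1KO-labelled libraries held 2.14 to 3.95 CPM, the Tnfr2KO libraries 3.71 to 5.49 CPM, the Dnmt3a libraries 5.34 to 9.76 CPM and the MxCre libraries 8.30 to 9.26 CPM. Isoc2b held 1.71 to 2.44, 2.002 to 5.65, 5.22 to 8.67 and 8.995 to 10.8 CPM in the same order. The means of both genes ranked the groups as Lrmda did, with a smaller range, and so did those of Stap1 and H1f0. The Grk3 mean was higher in Dnmt3a (29.7 CPM) than in MxCre (28.0 CPM). All 5 genes were picked for their likeness to Lrmda in these same libraries, so a shared order follows largely from that choice. Stap1, Grk3, H1f0 and Isoc2b lie on chromosomes 5, 5, 15 and 7 in the RefSeq table, away from Lrmda. The table gives no chromosome for 6330562C20Rik.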

How the data were processed

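Single-cell 3' RNA-seq libraries (10x Chromium) of 14 mice were used, in the groups given by the labels. The deposited matrices hold whole-number UMI counts per gene and cell. They were made with Cell Ranger 6.0.0 on mm10/GRCm38, per the submitters' processing notes. The annotation release is not given in the sources used here.

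Cells with at least 1000 UMIs, 500 genes and under 10% mitochondrial UMIs were kept, and doublets called at a rate of 0.8% per 1000 cells were removed. For each library, counts of the kept cells were added up, and separately those of every lineage gate with at least 20 cells. CPM are UMIs per 1000000 UMIs of that sum, without further scaling, so CPM of all cells also move with lineage content. The sums went into edgeR 4.0.16 under R 4.3.3 (TMM factors, filterByExpr, 1 model of the 4 groups), whose quasi-likelihood F test gave p-values, adjusted by Benjamini and Hochberg over all tested genes. The SE is the absolute log2 fold change over the square root of F. Calls have an adjusted p below 0.05. The edgeR step was tested on simulated counts first. Gene positions came from the RefSeq table of GRCm38.p6. Intervals and floors (3 UMIs) cover counting error only. Zfp503 and Gm10248 were left untested in gates where the MxCre and Tnfr2KO libraries alone would not have passed the filter. Zfp503 was also left untested in the granulocyte gate, where it passed only through libraries in which it was high. No sequence was used here.

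The genes, marker sets and lists were chosen with earlier results of these data known, and the numerical gate rule was set with the matrices in view. Comparisons with the Dnmt3a group, the comparator when the genes were chosen, carry no test for the 3 genes. Named were the 3 genes, the next genes on either side and any called within 3 Mb, the 5 genes most correlated with Lrmda, Tnfrsf1a, Tnfrsf1b, Dnmt3a, called list members, and others named as chosen after their values were seen: Rab32, Rab38, Mitf, Zfp703, Gm47601, Gm7480 and 4930405A10Rik, and genes named beside small counts. Alternatives were DESeq2 1.42.0, RLE scaling, no filter, all barcodes, doublets kept, only the 2 groups (in the gates added after seeing the data), a replicate block, a stricter gate (score 0.75, 4 markers, margin 0.5), log2(CPM + 5), other windows and each library left out.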

Additional observations from a re-analysis of the deposited data

Results flagged for a closer look

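In groups of 4, each gene's highest and lowest library was compared with the others by Dixon's criterion, over 32 sets of values, of which chance alone marks about 1 in 20. It marked 3. Lrmda in Tnfr2KO monocyte progenitors had 1 library at 12.4 CPM above the other 3 at 10.6 to 10.7 CPM. Zfp503 in Dnmt3a basophil/mast progenitors had 1 library at 0.118 CPM, and Zfp503 in Dnmt3a erythroid progenitors had 1 library at 0.117 CPM, where the other 3 libraries held no UMI. Each of these last values is 1 UMI. Sets with UMIs in only 1 library are always marked, so the rate of 1 in 20 does not apply to them.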

How the results depend on the processing

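Over all cells, Lrmda in Tnfr2KO against MxCre kept its direction under all 21 alternatives. It passed the threshold with DESeq2 and with only the 2 groups (log2 fold change -0.57 in both) and without Dnmt3a replicate 4, and the fits without single libraries ran from -0.66 to -0.53. Zfp503 and Gm10248 passed under none of the 21. The Tnfr1KO-labelled values against Dnmt3a stayed within -2.96 to -2.78 for Lrmda and 2.19 to 3.14 for Zfp503 under the 21 alternatives. For Gm10248 the fits without single libraries ran from -5.11 to -3.79, through 2, 0 and 1 UMIs.

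The number of genes called in Tnfr1KO-labelled against Dnmt3a, 87, was 912 with DESeq2, 134 with RLE scaling, 57 over all barcodes, 34 with a replicate block and 8 to 319 without single libraries. In Tnfr2KO against MxCre, 66 became 387 with DESeq2, 182 with only the 2 groups and 23 to 141 without single libraries. Replicate numbers did not pair the mice, since deviations of the 19 same-number pairs correlated at -0.0167 on average, and the block changed no call for the 3 genes.

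By lineage and without single libraries, Lrmda in Tnfr2KO against MxCre ran from -0.86 to -0.72 in HSC/MPP and from -0.89 to -0.64 in monocyte progenitors, where the fit of only the 2 groups, added after seeing the data, gave -0.74 and no call. In Tnfr1KO-labelled against Dnmt3a it was -3.32 with the stricter gate and -3.31 to -3.15 without single libraries in granulocyte progenitors, and -3.08 with the stricter gate in basophil/mast progenitors. Zfp503 in erythroid progenitors, not tested, was fitted at 6.01 in Tnfr2KO against MxCre and at 5.67 with DESeq2, sizes that depend on the prior count since MxCre held no UMI.

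Within mice, Lrmda in megakaryocyte over erythroid progenitors ran from 0.35 to 0.50 without single libraries. Basophil/mast over HSC/MPP turned to -0.0296 with the stricter gate and ran from 0.11 to 0.19, passing without Dnmt3a replicate 4 (0.19, adjusted p = 0.0249), and HSC/MPP over monocyte progenitors ran from -0.0254 to 0.0443. For Zfp503, HSC/MPP over erythroid progenitors turned to -0.0230 with log2(CPM + 5), -0.0087 with doublets kept and -0.0864 to 0.0814 without single libraries. Lymphoid-primed over megakaryocyte ran from -0.0175 to 0.117 and basophil/mast over HSC/MPP from -0.0382 to 0.170. The causes were not tested. Depth limits Gm10248 and the HSC/MPP and megakaryocyte values of the Tnfr1KO-labelled mice, which rest on 13 Lrmda UMIs each.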

Other observations

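Mature neutrophil gated cells, which had at least 20 cells in all 3 Tnfr1KO-labelled libraries, held Lrmda at a mean of 6.81 CPM there, against at most 2.32 CPM in the 7 progenitor gates. The values were 6.56, 11.1 and 2.77 CPM on 6, 12 and 3 UMIs, against 12.4, 12.6 and 8.49 CPM in the MxCre libraries, so the groups overlapped. Pooled, the Tnfr1KO-labelled level was 6.82 CPM (95% interval 4.22 to 10.4, exact, counting error only). The Dnmt3a level was 8.15 CPM (6.37 to 10.3), with 60 of its 71 UMIs from replicate 4, and 16.4 CPM (8.19 to 29.4) without that library. The Tnfr2KO level was 7.23 CPM (4.88 to 10.3) and the MxCre level 11.8 CPM (9.02 to 15.2), so the intervals of all 4 groups overlapped in this gate. The gate was picked after its values were seen, and no test was made. Macrophage gated cells of the Tnfr1KO-labelled mice held 5 Lrmda UMIs in 126 cells, or 1.84 CPM (0.599 to 4.30), and those of MxCre mice 22 UMIs in 75 cells, or 19.8 CPM (12.41 to 29.99). The non-coding gene Gm7480 was highest in Dnmt3a replicate 1, at 3.80 CPM, against 0.128 to 0.949 CPM in the other libraries.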
